A study of Homo sapiens with 4 samples.

Results

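The 43 genes described here encode the machinery of the lysosome and of autophagy in Reh-6-MPR cells, a human B-cell acute lymphoblastic leukemia line (Reh) passaged in rising 6-mercaptopurine (6-MP) until it was resistant. They were chosen by gene symbol, and 40 of them have a row among the 29833 genes of the expression table. MITF, CTSF and ATP6V0A1 were not analysed here. The study asked which transcripts differ when resistant cells receive histidine together with 6-MP. Its RNA-seq holds 4 libraries of poly(A) RNA, 1 per treatment, all from the same wild-type resistant line after 48 h in culture. The vehicle library (Blank) received PBS, the histidine library (His) received histidine at 4 mM, the 6-MP library received 6-MP at 1.0 μg/mL, and the combined library (His+6-MP) received both at these doses. The line was selected in 6-MP at higher concentrations than the one used here, and the parental Reh line is not among the libraries. Whether Reh-6-MPR derives from a single clone is not given in the sources used here.

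Lysosomes are acidic compartments in which hydrolases and cathepsins break down proteins, glycans and lipids, and autophagy delivers the cell's own material to them inside double-membraned autophagosomes. The acid is kept by a proton pump, the V-ATPase, and the autophagosome membrane is built by the ULK1 and class III phosphatidylinositol 3-kinase complexes and decorated with ATG8 proteins. The transcription factors TFEB and TFE3 move to the nucleus when the kinase mTORC1 is inactive, for instance when amino acids are scarce, and bind an E-box-like sequence, the CLEAR element, in front of many lysosomal genes.

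Expression was given as FPKM, the reads of a gene divided by its length and by the depth of the library. The libraries held 12899122 (combined treatment) to 15486376 (histidine) reads, and the whole reads behind the FPKM values were recovered for nearly all genes. A log2 fold change is a difference of log2(FPKM + 1), a scale on which low genes appear to differ less than their reads do. Counts were made over the 12750 genes whose FPKM averaged at least 1, and 36 of the lysosome and autophagy genes are among them. A log2 read ratio compares the recovered reads, each divided by the reads of its library, and carries an exact Clopper-Pearson 95% interval. These intervals cover counting error only and compare libraries, not treatments. As each treatment has a single library, nothing here was checked on replicates and no p-value was computed. In bulk RNA a change in the mix of cells and a change in RNA per cell cannot be told apart. Scaling the libraries by their median ratio, an alternative to the deposited scale, lowers the combined treatment by 0.16 against vehicle on the log2 scale, so read ratios between 0 and this size change sign with it and intervals that begin in this range then reach 0.

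Genes of the B lineage list, which checks the cell type, had summed levels of 1035 to 1108 FPKM in the other 3 libraries and 1082 FPKM with the combined treatment, over 9 of 10 genes with a row. The monocyte and macrophage list had 6 of 10 genes with a row and was at 30.2 to 34.4 FPKM in the other 3 libraries and 63.0 FPKM with the combined treatment. That difference lay in ITGAM, at 3.14, 3.16, 3.06 and 19.2 FPKM, and MPO, at 27.7, 30.5, 26.4 and 41.0 FPKM, in the order vehicle, histidine, 6-MP and combined. CD14 and FCGR1A stayed at or below 0.227 FPKM in every library, CSF1R at or below 1.25 FPKM and LYZ at or below 1.39 FPKM. Of the 5 T cell genes only TRAC had a row, at 11.6, 12.2, 12.2 and 32.1 FPKM in the same order. The part of these differences in the results below was not tested.

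The lysosome and autophagy genes had a median log2 fold change of 0.21 with the combined treatment against vehicle, where all genes tested had 0.13, and they stayed close to vehicle with histidine or 6-MP alone. With the combined treatment 27 of the 36 genes stood above each of the other 3 libraries, against 53.8% of all genes tested, and 4 stood below each of them, against 28.8%. The 5 remaining genes lay within the range of the others. The glycan and lipid hydrolases and their activators carried most of the difference, with NEU1, GUSB, PSAP and GRN higher, and cathepsin C (CTSC) was the clearest gene in the opposite direction. The summed level of the 40 genes was 384.4 FPKM with vehicle, 384.3 under histidine, 378.7 under 6-MP and 482.3 under the combined treatment. Of the gain of 97.9 FPKM over vehicle, 25.5% of the vehicle sum, PSAP made up 32.9%, GUSB 14.7% and GRN 13.3%, so the sum follows 3 abundant transcripts. These sums are on the deposited scale, and the median-ratio scaling, which lowers the combined treatment by 0.16 against vehicle on the log2 scale, makes the gain smaller.

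**Figure D1:**
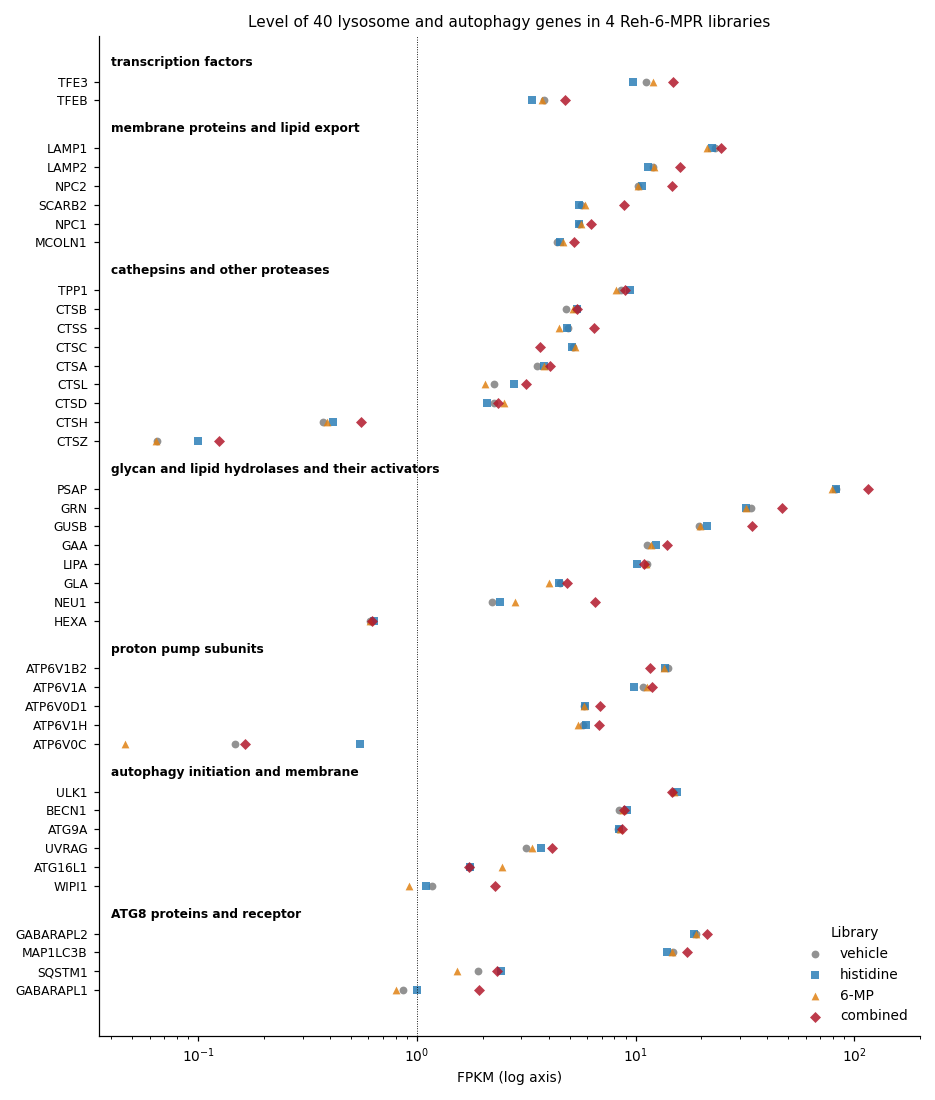
FPKM on a log axis of the 40 lysosome and autophagy genes with a row, grouped by role, with 1 symbol per library and a dotted line at an FPKM of 1. The combined treatment (diamonds) lies to the right of the other 3 libraries for most hydrolases and membrane proteins, and to their left for CTSC and ATP6V1B2.

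The sequences around the start sites were searched for exact letters that TFEB and TFE3 can bind. In the RefSeq promoter table (GRCh38.p14, 250 bases before to 50 bases after each start), 28 of the 36 genes have an entry. The core of the CLEAR element was searched as TCACGTGA and the plain E-box as CACGTG. Both read the same on either strand, every TCACGTGA also holds CACGTG, and CACGTG is bound by MYC with MAX as well. TCACGTGA was found in 5 of the 28 genes (17.9%), against 1.18% of the 27305 genes with an entry and 2.41% of the 8558 of them that were tested. CACGTG was found in 7 of the 28 (25%), against 8.77% and 12.8%. As the CLEAR element is known from lysosomal genes and the list was chosen to hold such genes, these shares describe the list and not the libraries. The stretches that hold the core follow, 5′ to 3′ on the strand of the gene, with the core in capitals.
LAMP1: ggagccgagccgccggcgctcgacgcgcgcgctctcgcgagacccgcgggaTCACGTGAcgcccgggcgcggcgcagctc
MCOLN1: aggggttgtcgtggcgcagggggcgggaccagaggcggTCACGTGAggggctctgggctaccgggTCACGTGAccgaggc
CTSA: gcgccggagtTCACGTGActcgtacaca
GAA: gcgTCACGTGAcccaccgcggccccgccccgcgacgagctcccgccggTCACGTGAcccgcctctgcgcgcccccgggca
ATP6V0D1: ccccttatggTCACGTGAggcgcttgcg

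These stretches lie at chr13:113297159-113297238 (plus strand) for LAMP1, chr19:7522544-7522623 (plus strand) for MCOLN1, chr20:45891299-45891326 (plus strand) for CTSA, chr17:80101501-80101580 (plus strand) for GAA and chr16:67481200-67481227 (minus strand) for ATP6V0D1. Those of LAMP1 and MCOLN1 overlap no annotated exon of GENCODE 29. The last 25 bases of the GAA stretch lie in a GAA exon, and the 28 bases shown for CTSA and for ATP6V0D1 lie in exons of transcripts that start upstream of the RefSeq start. MCOLN1 and GAA each show the core in 2 copies, and LAMP1 has a further copy across its start site, beyond the stretch shown. NEU1, the gene with the largest log2 fold change, has the E-box with the T before it but not the A after it that complete the core. Its E-box is shown in capitals.
NEU1: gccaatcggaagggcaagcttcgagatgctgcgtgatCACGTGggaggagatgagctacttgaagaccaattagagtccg

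The NEU1 stretch lies at chr6:31862905-31862984 (minus strand), with 2 bases in an annotated NEU1 exon. The cathepsin D gene CTSD was the other gene tested with the E-box only. Genes with the core were not those that differed most. Their log2 fold changes for the combined treatment against vehicle ran from 0.096 (LAMP1) to 0.27 (GAA), with a median of 0.21. The median was 0.20 over the 21 genes with neither sequence, among them GUSB, SCARB2, WIPI1 and GABARAPL1. A match is a description of letters, not of binding, and the 8 genes with no entry could not be read. Variants of these letters and sites outside the window were not searched, so a gene with neither sequence may still hold a site. Whether TFEB or TFE3 acted on any of these genes was not tested.

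**Figure D2:**
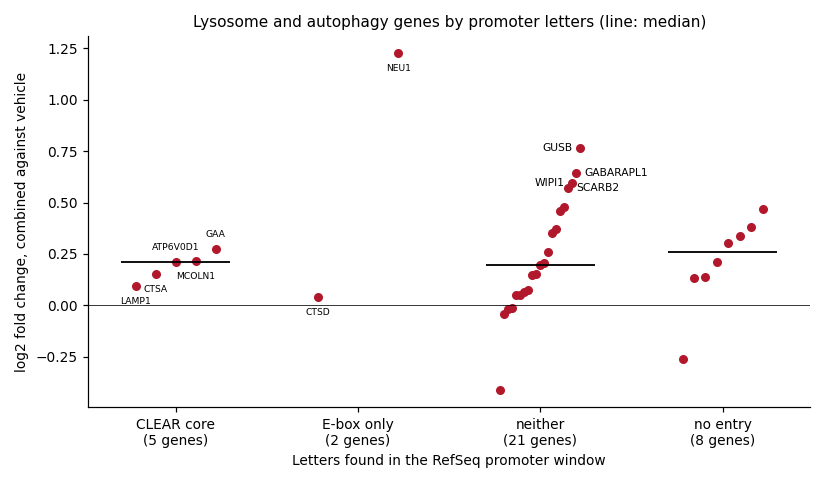
Log2 fold change of each gene tested, combined treatment against vehicle, by the letters in its RefSeq promoter window, where each point is 1 gene and the line is the median of a class of at least 5 genes. The 5 genes with the CLEAR core lie between 0.096 and 0.27, and NEU1 stands apart among the genes with the E-box only.

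TFEB and TFE3, the transcription factors of the list, were both highest with the combined treatment and lowest with histidine. TFEB (ENSG00000112561, chr6:41683978-41736259, minus strand) was at an FPKM of 3.82 with vehicle, 3.34 under histidine, 3.74 under 6-MP and 4.78 under the combined treatment, from 184, 174, 193 and 207 reads. Its log2 read ratio for the combined treatment was 0.32 (95% interval 0.027 to 0.61) against vehicle and 0.51 (0.22 to 0.81) against histidine. After the median-ratio scaling these were 0.16 (-0.13 to 0.46), an interval that includes 0, and 0.38 (0.084 to 0.68). TFE3 (ENSG00000068323, chrX:49028726-49043410, minus strand) had an FPKM of 11.2 with vehicle, 9.78 under histidine, 12.0 under 6-MP and 14.8 under the combined treatment. Against histidine its log2 fold change was 0.55, past the size of 0.5 used for counts, while against vehicle it was 0.37 and against 6-MP 0.27. With histidine alone TFE3 was below vehicle, with a log2 read ratio of -0.20 (-0.35 to -0.036). RNA levels of these factors do not show where the proteins are in the cell, which is how they are mainly controlled.

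All 6 membrane and lipid export genes were higher with the combined treatment than in any other library, as were 53.8% of all genes tested. After the median-ratio scaling LAMP1 and NPC1 no longer were, and the share of all genes was 40.8%. SCARB2, the receptor that carries glucocerebrosidase to the lysosome (ENSG00000138760, chr4:76158737-76234536, minus strand), was at an FPKM of 5.61 with vehicle, 5.54 under histidine, 5.88 under 6-MP and 8.81 under the combined treatment. The other 3 libraries lay close together, and the combined treatment stood apart with 1.57 times the reads of vehicle after correction for depth. The log2 read ratio was 0.65 (0.56 to 0.75) against vehicle, 0.67 (0.58 to 0.76) against histidine and 0.58 (0.49 to 0.68) against 6-MP. SCARB2 overlaps FAM47E and a further gene on the opposite strand, and whether reads were counted by strand is not known here. NPC2, which hands cholesterol from the lumen to NPC1 in the membrane, was at an FPKM of 10.3 with vehicle, 10.7 under histidine, 10.2 under 6-MP and 14.7 under the combined treatment, with a log2 fold change of 0.48 against vehicle. NPC1 itself differed less, at 5.53, 5.50, 5.63 and 6.22 FPKM in the same order and 0.15 on the log2 scale. The membrane glycoprotein LAMP2, also the receptor of chaperone-mediated autophagy, was at 12.0, 11.4, 12.1 and 15.9 FPKM, with a log2 fold change of 0.38.

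LAMP1, the most abundant gene of this list and a standard lysosome marker (ENSG00000185896, chr13:113297239-113323672, plus strand), differed little. Its FPKM was 23.0 with vehicle, 22.4 under histidine, 21.1 under 6-MP and 24.6 under the combined treatment, and its log2 fold change against vehicle was 0.096. The level with 6-MP was the lowest and that with the combined treatment the highest, with log2 read ratios to vehicle of -0.12 (-0.21 to -0.029) and 0.10 (0.006 to 0.19). MCOLN1, the lysosomal calcium channel and the least abundant gene of the list, was at 4.38, 4.52, 4.68 and 5.25 FPKM, with a log2 read ratio of 0.26 (0.008 to 0.52) against vehicle. Its interval against histidine, -0.032 to 0.46, included 0. After the median-ratio scaling the intervals against vehicle, -0.15 to 0.037 for LAMP1 and -0.15 to 0.36 for MCOLN1, included 0 as well. The CLEAR core was found in the promoter windows of LAMP1 and MCOLN1, and not in that of SCARB2. MCOLN1 overlaps the protein-coding gene PNPLA6 on its own strand, and how shared reads were counted is not known here.

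The glycan and lipid hydrolases and their activators had the largest median of the 7 role groups, a log2 fold change of 0.46 for the combined treatment against vehicle over 7 genes tested. Their summed level on the deposited scale was 165.9 FPKM with vehicle, 165.8 under histidine, 160.8 under 6-MP and 232.3 under the combined treatment, over all 8 genes. NEU1, the sialidase that removes sialic acid from glycoproteins and gangliosides (ENSG00000204386, chr6:31857659-31862905, minus strand), was at an FPKM of 2.20 with vehicle, 2.40 under histidine, 2.80 under 6-MP and 6.50 under the combined treatment. The reads behind them were 152, 179, 207 and 404, so the combined library held 2.95 times the depth-corrected reads of vehicle. Its log2 fold change was 1.23 against vehicle, 1.14 against histidine and 0.98 against 6-MP. The log2 read ratio was 1.56 (1.29 to 1.84) against vehicle and 1.22 (0.97 to 1.46) against 6-MP, while 6-MP alone stood at 0.35 (0.037 to 0.66). NEU1 was the only gene of the list past a log2 fold change of 1 in any comparison.

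GUSB, the beta-glucuronidase that trims glycosaminoglycans and a common reference gene in RT-qPCR (ENSG00000169919, chr7:65960684-65982215, minus strand), was at an FPKM of 19.6 with vehicle, 21.1 under histidine, 19.6 under 6-MP and 34.0 under the combined treatment. Vehicle and 6-MP were equal to 3 digits, histidine was slightly above them, and the combined treatment stood above all of them. With 1092 to 1274 reads in the first 3 libraries and 1707 with the combined treatment, the log2 read ratio was 0.80 (0.68 to 0.91) against vehicle, 0.69 (0.58 to 0.79) against histidine and 0.79 (0.68 to 0.90) against 6-MP. PSAP, whose product is cut into the saposins that present sphingolipids to their hydrolases (ENSG00000197746, chr10:71816298-71851325, minus strand), was the most abundant gene of the whole list. Its FPKM was 82.8 with vehicle, 82.5 under histidine, 78.9 under 6-MP and 115 under the combined treatment, at percentile 98.8 of all genes of the table by mean level. The log2 fold change of 0.47 against vehicle and 0.47 against histidine stayed below 0.5, and that of 0.54 against 6-MP passed it. GRN, which encodes progranulin, a partner of prosaposin on the way to the lysosome (ENSG00000030582, chr17:44345246-44353106, plus strand), had an FPKM of 33.5 with vehicle, 32.0 under histidine, 31.9 under 6-MP and 46.5 under the combined treatment. PSAP and GRN thus had the same order, with the 3 other libraries within 0.067 (PSAP) and 0.070 (GRN) of each other on the log2 scale.

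The remaining hydrolases differed less. GAA, which degrades glycogen and carries 2 copies of the CLEAR core, was at 11.3, 12.4, 11.7 and 13.9 FPKM in the order vehicle, histidine, 6-MP and combined, with a log2 read ratio of 0.30 (0.16 to 0.43) against vehicle. GLA, the alpha-galactosidase of Fabry disease, was at 4.53, 4.45, 4.03 and 4.83 FPKM, and its interval against vehicle, -0.11 to 0.30, included 0. LIPA, which frees cholesterol and fatty acids from esters, was at 11.3, 10.2, 11.2 and 11.0 FPKM, a log2 fold change of -0.042. It overlaps 5 genes on the opposite strand, and whether reads were counted by strand is not given in the sources used here. HEXA, the alpha subunit of beta-hexosaminidase, was the least abundant of the group at 0.611, 0.634, 0.611 and 0.624 FPKM, below the filter, and shares its strand and position with another protein-coding gene.

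Among the cathepsins and other proteases no gene passed 0.5 on the log2 scale in either direction, with a median of 0.14 for the combined treatment against vehicle over 7 genes tested. CTSC, the dipeptidyl peptidase that activates granule serine proteases (ENSG00000109861, chr11:88265069-88359684, minus strand), was singled out after its values were seen. Its FPKM was 5.19 with vehicle, 5.13 under histidine, 5.30 under 6-MP and 3.65 under the combined treatment, from 1847, 1975, 2022 and 1170 reads. The first 3 libraries lay close together and the combined treatment was below all of them, with log2 read ratios of -0.51 (-0.61 to -0.40) against vehicle, -0.49 (-0.60 to -0.39) against histidine and -0.54 (-0.64 to -0.43) against 6-MP. The log2 fold changes of -0.41, -0.40 and -0.44 are smaller because of the added 1 at this low level. The recovered length of CTSC, 24849 bases of exon, is the longest of the 40 genes and lowers its FPKM next to shorter genes.

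CTSS, a cathepsin of antigen-presenting cells, and CTSL, a broad lysosomal endopeptidase, went the other way. CTSS was at an FPKM of 4.92 with vehicle, 4.85 under histidine, 4.47 under 6-MP and 6.47 under the combined treatment, highest with the combined treatment, with a log2 read ratio of 0.40 (0.22 to 0.57) against vehicle. CTSL was at 2.26, 2.78, 2.06 and 3.16 FPKM in the same order, and histidine alone was also above vehicle, with 0.30 (0.025 to 0.57). Against histidine the CTSL interval for the combined treatment, -0.071 to 0.44, included 0. TPP1, a tripeptidyl peptidase and the most abundant of the group, was at 8.62, 9.44, 8.09 and 8.95 FPKM, highest with histidine. CTSB was at 4.81, 5.37, 5.16 and 5.39 FPKM and CTSA, the protective protein that holds NEU1 in its complex, at 3.54, 3.81, 3.81 and 4.04 FPKM, both lowest with vehicle. CTSD, the main aspartic protease, was at 2.24, 2.09, 2.49 and 2.34 FPKM and highest with 6-MP, and it shares its strand and position with another protein-coding gene. CTSH, an aminopeptidase, was at 0.371, 0.413, 0.389 and 0.552 FPKM and CTSZ, a carboxypeptidase, at 0.0649, 0.0999, 0.0639 and 0.124 FPKM, both below the filter, with at most 98 reads and 31 reads.

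The proton pump subunits had a median log2 fold change of 0.17 for the combined treatment against vehicle over 4 genes tested. By the read interval 3 were higher and 1 lower, where 42.7% of all genes tested were higher and 20.8% lower. After the median-ratio scaling the intervals of the 3 higher genes included 0. That of ATP6V1B2 stayed below 0, at -0.44 (-0.55 to -0.33). ATP6V1B2, the B subunit of the catalytic head and the most abundant of the group (ENSG00000147416, chr8:20197381-20226819, plus strand), was at an FPKM of 14.1 with vehicle, 13.7 under histidine, 13.4 under 6-MP and 11.6 under the combined treatment. The combined treatment was the lowest library, with a log2 read ratio of -0.28 (-0.39 to -0.17) against vehicle and -0.21 (-0.32 to -0.10) against 6-MP. Its partner in the head, ATP6V1A, was at 10.8, 9.87, 11.2 and 11.9 FPKM in the same order and stood slightly above vehicle, at 0.15 (0.002 to 0.29). The regulatory subunit ATP6V1H was at 5.73, 5.93, 5.48 and 6.80 FPKM and the membrane-sector subunit ATP6V0D1 at 5.80, 5.86, 5.80 and 6.87 FPKM, both highest with the combined treatment, with log2 fold changes of 0.21 and 0.21. ATP6V0C, the proteolipid of the ring, was listed at 0.148, 0.547, 0.0460 and 0.164 FPKM, from 3, 12, 1 and 3 reads. It lies over another gene on the same strand. How shared reads were counted is not known here, and no fold is given.

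Genes of autophagy initiation and of the growing membrane had a median log2 fold change of 0.058 for the combined treatment against vehicle over 6 genes. WIPI1, which binds the phosphatidylinositol 3-phosphate of the forming autophagosome (ENSG00000070540, chr17:68420948-68457513, minus strand), was the least abundant and the exception. Its FPKM was 1.17 with vehicle, 1.10 under histidine, 0.919 under 6-MP and 2.28 under the combined treatment, from 57, 58, 48 and 100 reads. At this depth the log2 read ratio was 0.96 (0.48 to 1.46) against vehicle, 1.05 (0.57 to 1.54) against histidine and 1.31 (0.80 to 1.84) against 6-MP. The intervals are wide but lie above 0. WIPI1 overlaps a microRNA gene on its own strand and ARSG and a further gene on the opposite strand, and how shared reads were counted is not known here. The kinase ULK1, the most abundant of the group, was at an FPKM of 14.8 with vehicle, 15.5 under histidine, 15.0 under 6-MP and 14.6 under the combined treatment, with a log2 fold change of -0.019 against vehicle.

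The class III phosphatidylinositol 3-kinase subunit BECN1 was at 8.42, 9.17, 8.74 and 8.85 FPKM, in the order vehicle, histidine, 6-MP and combined. ATG9A, the lipid scramblase of the early vesicles, was at 8.31, 8.42, 8.48 and 8.65 FPKM. Neither differed from vehicle beyond counting error in any library. UVRAG, a BECN1 partner, was at 3.17, 3.70, 3.35 and 4.14 FPKM, above vehicle both with histidine, 0.23 (0.014 to 0.44), and with the combined treatment, 0.39 (0.17 to 0.60). After the median-ratio scaling the UVRAG interval with histidine, -0.010 to 0.41, included 0. ATG16L1, which places the ATG8 conjugation enzyme on the membrane, was the gene of the list with the largest difference under 6-MP alone. It was at 1.76, 1.74, 2.44 and 1.73 FPKM from 152, 163, 226 and 135 reads, highest with 6-MP, with a log2 read ratio of 0.47 (0.17 to 0.78) to vehicle. With the combined treatment it was close to the vehicle level, and against 6-MP its ratio was -0.49 (-0.81 to -0.18).

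The ATG8 proteins were all highest with the combined treatment, as were 53.8% of all genes tested. GABARAPL1 (ENSG00000139112, chr12:10212458-10223128, plus strand), of the GABARAP branch of the family, was at an FPKM of 0.862 with vehicle, 1.00 under histidine, 0.804 under 6-MP and 1.91 under the combined treatment, from 50, 63, 50 and 100 reads. With the combined treatment it had 2.22 times the depth-corrected reads of vehicle, a log2 read ratio of 1.15 (0.65 to 1.67). It reached the filter on mean FPKM only through the combined treatment. GABARAPL2, the most abundant of the group, was at an FPKM of 19.0 with vehicle, 18.4 under histidine, 18.8 under 6-MP and 21.2 under the combined treatment, with a ratio of 0.16 (0.020 to 0.30). MAP1LC3B, the LC3 protein used to count autophagosomes, was at 14.8, 13.9, 14.6 and 17.2 FPKM in the same order, with 0.22 (0.097 to 0.34). The 3 genes thus shared a direction on the deposited scale at very different sizes, where the median read ratio of all genes tested was 0.16. After the median-ratio scaling the intervals of GABARAPL2, -0.14 to 0.15, and MAP1LC3B, -0.060 to 0.185, included 0.

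SQSTM1, the cargo receptor p62 and itself degraded by autophagy, had another order of the libraries. It was at 1.90, 2.43, 1.53 and 2.33 FPKM from 205, 284, 177 and 226 reads. It was highest with histidine alone, 0.36 (0.093 to 0.62) against vehicle as a log2 read ratio, and lowest with 6-MP, -0.31 (-0.61 to -0.014). The combined treatment was close to histidine, with an interval of -0.32 to 0.19 for their ratio. Against vehicle the combined treatment was at 0.29 (0.012 to 0.57) and against 6-MP at 0.60 (0.31 to 0.90), both above 0, and after the median-ratio scaling the first interval, -0.14 to 0.41, included 0. SQSTM1 and MAP1LC3B overlap genes on the opposite strand, as do 15 of the 40 genes, and 8 overlap a gene on their own strand.

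**Figure D3:**
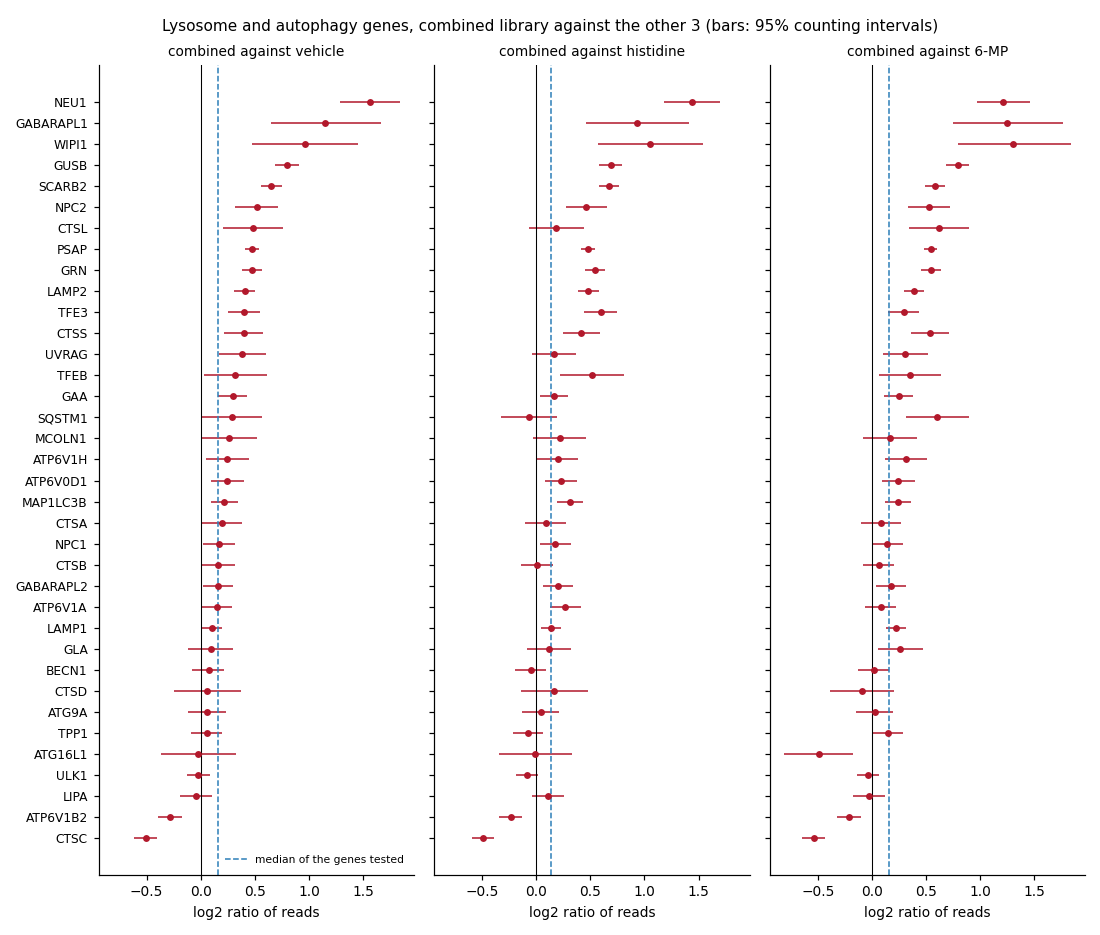
Log2 ratio of depth-corrected reads, combined treatment against each of the other 3 libraries, for the 36 genes tested, with 95% counting intervals (bars) and the median of all genes tested (dashed). NEU1, GABARAPL1, WIPI1, GUSB and SCARB2 lie above the median with their whole interval in all 3 panels, as do NPC2, PSAP, GRN, LAMP2 and CTSS, and CTSC and ATP6V1B2 lie below 0 in all 3.

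Counted over the list, histidine alone passed a log2 fold change of 1 in 0 of the 36 genes, against 1.33% of all genes tested. At 0.5 it left 0 higher (2.93% of all genes) and 0 lower (1.93%). 6-MP alone also passed 1 in 0 genes (1.18%), with 0 higher by 0.5 (2.28%) and 0 lower (2.44%). The read interval lay above 0 in 5 genes with histidine (12.9% of all genes) and below 0 in 2 genes (8.72%), TFE3 and LIPA. The median-ratio scaling lowers histidine by 0.024 against vehicle. The interval then lay above 0 in 2 genes (9.97%), CTSL and SQSTM1, and below 0 in 3 (12.4%), TFE3, LIPA and ATP6V1A. With 6-MP the read interval on the deposited scale lay above 0 in 2 genes (9.98%), NEU1 and ATG16L1. It lay below 0 in 3 (7.92%), LAMP1, PSAP and SQSTM1. The medians were -0.005 for histidine and 0.002 for 6-MP, against 0.015 and 0.004 over all genes. Vehicle, histidine and 6-MP spanned a median of 0.11 on the log2 scale per gene of the list and 0.15 per gene of the table.

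With the combined treatment against vehicle, 1 gene passed 1, NEU1, against 6.53% of all genes. By at least 0.5, 5 genes (13.9%) were higher, SCARB2, GUSB, NEU1, WIPI1 and GABARAPL1, against 19.7% of all genes, and 0 were lower, against 7.37%. GABARAPL1 reached the filter on mean FPKM only through the combined treatment, where it is high. Its place among the higher genes, here and in the counts that follow, is therefore no separate result. The read interval lay above 0 in 25 genes (69.4%), against 42.7%, and below 0 in 2 (5.56%), against 20.8%. After the median-ratio scaling it lay above 0 in 14 genes (38.9%, against 30.2% of all genes) and below 0 in 4 (11.1%, against 30.9%), which are CTSC, ATP6V1B2, LIPA and ULK1. TFEB, LAMP1, MCOLN1, NPC1, CTSB, ATP6V0D1, ATP6V1A, ATP6V1H, SQSTM1, MAP1LC3B and GABARAPL2 no longer had an interval above 0 on that scale. On the deposited scale the share of the list higher by 0.5 was thus below that of the table, and the share with an interval above 0 was above it. In log2 fold change 31 genes (86.1%) lay above 0 and 5 below, against 63.6% of all genes above 0. In 18 genes the combined treatment lay above the other 3 libraries by more than these spanned (37.1% of all genes), and in 2, CTSC and ATP6V1B2, below them by more (19.2%).

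Against histidine, NEU1 was again the 1 gene past 1 (5.55% of all genes). By at least 0.5, 7 genes were higher (17.8%), the 5 named above with TFE3 and GRN, and 0 lower (7.53%). Against 6-MP, 0 genes passed 1 (6.02%), 7 were higher by 0.5 (19.3%), the same 5 with PSAP and GRN, and 0 were lower (6.88%). The medians were 0.16 against histidine and 0.22 against 6-MP, beside 0.11 and 0.13 over all genes. These comparisons use the same combined library, so they are not separate evidence. After the median-ratio scaling, 3 genes were higher by 0.5 than vehicle (GUSB, NEU1 and GABARAPL1) and 1 was lower (CTSC), against 13.9% and 11.7% of all genes. The combined treatment then stood above each other library in 20 genes (40.8% of all genes) and below each in 8 (40.5%), and the median against vehicle was 0.077, with 24 genes above 0 and 12 below, against -0.000 and 50% above 0 over all genes.

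**Figure D4:**
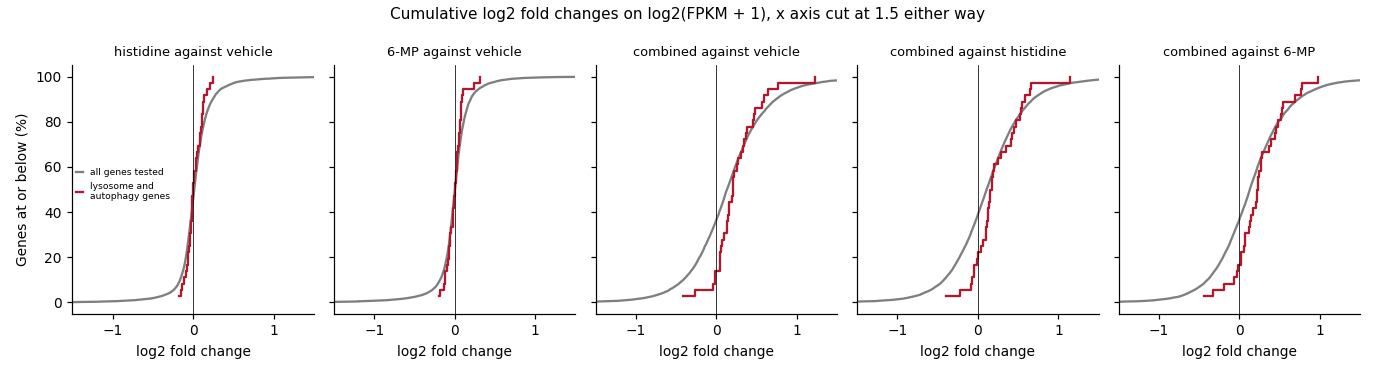
Share of genes (%) at or below each log2 fold change, for the 36 lysosome and autophagy genes (red) and all 12750 genes tested (grey), in the 5 comparisons, with the axis ending at 1.5 either way. In the 3 panels of the combined treatment the red line runs to the right of the grey one below 0.2 and meets it above, and in the 2 panels of single agents the lines run together.

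Departure from additivity asks whether both agents together differ from the sum of each alone. It is the log2 fold change of the combined treatment over vehicle less the log2 fold changes of the single agents. It passed 1 in 0 of the 36 genes (6.76% of all genes), was at least 0.5 in 7 (18.8%) and at most -0.5 in 0 (8.49%). The 7 were SCARB2, GUSB, NEU1, PSAP, GRN, WIPI1 and GABARAPL1. After the median-ratio scaling 4 of them remained (13.6% of all genes), GUSB, NEU1, WIPI1 and GABARAPL1, with SCARB2 at 0.42, PSAP at 0.42 and GRN at 0.48, and CTSC was then at most -0.5 (12.1%). Taken from the read ratios with counting standard errors, it was 1.09 ± 0.20 for NEU1, 0.68 ± 0.081 for GUSB, 0.61 ± 0.068 for GRN, 0.60 ± 0.069 for SCARB2 and 0.55 ± 0.045 for PSAP. The error was larger for WIPI1, 1.40 ± 0.37, and GABARAPL1, 1.03 ± 0.37, which rest on at most 100 reads per library. For CTSC it was -0.52 ± 0.071. The median over the list was 0.20, with 29 genes above 0 and 7 below, and 0.11 over all genes tested. The share of all genes with a departure above 0 is not given here, so the count of 29 does not set the list apart.

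Other genes of the same pathways, 124 from 5 further lists, were described in the same way. Of these, 120 had a row and 99 were tested, with a median log2 fold change of 0.19 for the combined treatment against vehicle, 71 (71.7%) above 0 and 28 below. All genes tested had a median of 0.13, with 63.6% above 0. By at least 0.5, 15 (15.2%) were higher and 2 (2.02%) lower, against 19.7% and 7.37% of all genes. TCIRG1, a V-ATPase subunit of the membrane sector, was the only 1 past 1 against all 3 other libraries, at an FPKM of 4.65 with vehicle, 4.28 under histidine, 4.75 under 6-MP and 11.0 under the combined treatment. Its log2 fold change was 1.08 against vehicle, 1.18 against histidine and 1.06 against 6-MP. Among the genes past 1 against vehicle, chosen after their values were seen, were also IDUA, a glycosaminoglycan hydrolase, at 3.05, 4.28, 3.95 and 7.37 FPKM, and the autophagy receptor OPTN, at 0.707, 0.804, 0.939 and 2.43 FPKM. OPTN was below 1 FPKM in every other library and reached the filter only through the combined treatment. The 2 lower genes were the sialic acid exporter SLC17A5, at 6.66, 5.84, 4.89 and 3.02 FPKM, and the glycosaminoglycan hydrolase NAGLU, at 3.90, 3.12, 3.29 and 2.32 FPKM, again in the order vehicle, histidine, 6-MP and combined. With the combined treatment the sialidase NEU1 was thus higher and the sialic acid exporter lower. SLC17A5 was also below vehicle with histidine and with 6-MP alone, and a relation between it and NEU1 was not tested.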

How the data were processed

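Expression in Reh-6-MPR cells was read from 4 RNA-seq libraries, 1 per treatment, grouped by the treatment label. The authors deposited FPKM per gene. The submitters' processing notes name Trimmomatic, HISAT2, Cufflinks, HTSeq and the build hg38 (GRCh38), and a stranded TruSeq kit is stated. The strand setting of the counting is not given in the sources used here.

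Reads were recovered from the steps of the FPKM values and came out whole (tolerance 0.001 reads plus 2e-09 of the reads) in 29832 of 29833 genes (99.9966%). For 1789 genes the shortest length was multiplied by up to 6 to come within 10% of the GENCODE 29 exon length. The recovered reads sum to 99.917% to 99.941% of the library totals, 14316493 (vehicle), 15486376 (histidine), 15342296 (6-MP) and 12899122 (combined).

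Fold changes are differences of log2(FPKM + 1) for genes whose FPKM averaged at least 1, counted at 1 and at 0.5. The gene lengths that set FPKM come from the table itself; that of TFEB may be too short by a whole factor, which leaves its ratios as they are and widens its intervals. Intervals are exact Clopper-Pearson 95% intervals of the reads. The authors' DESeq2 test needs replicates and was left out. Genes were described with all values where they passed 0.5 in a comparison of the combined treatment, were transcription factors, or were the most or least abundant of their group, and others are given more briefly. Of the other pathway genes, those past 1 in all 3 comparisons of the combined treatment were named. The members and lists were chosen with earlier results of these data known.

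Alternatives used a pseudocount of 0.1, no filter, an average FPKM of at least 5, and the median ratio of each library to the geometric mean as its scale, over the genes tested or, added after the data were seen, over all genes above 0. The scripts were tested on simulated data. Promoters were read from a RefSeq table (GRCh38.p14); in 33 of 34 genes with an entry the bases after the start lie in GENCODE transcripts of the gene. The work was done in Python 3.11.15 with matplotlib 3.10.9, scipy 1.17.1, pandas 2.3.3 and numpy 2.4.6.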

Additional observations from a re-analysis of the deposited data

Results flagged for a closer look

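LAMP1 and PSAP were flagged because 6-MP went with opposite directions in the absence and in the presence of histidine, each beyond the counting interval. The share of all genes that meet this rule is not given here, so the flag does not set these genes apart from the table. For LAMP1 the log2 read ratio of 6-MP to vehicle was -0.12 (95% interval -0.21 to -0.029), and that of the combined treatment to histidine was 0.13 (0.040 to 0.22). For PSAP these ratios were -0.068 (-0.13 to -0.003) and 0.48 (0.42 to 0.54). The median of all genes tested was 0.005 for 6-MP to vehicle and 0.13 for the combined treatment to histidine, the latter as large as the ratio of LAMP1. After the median-ratio scaling the second ratio had an interval of -0.093 to 0.092 for LAMP1, which includes 0, and of 0.28 to 0.41 for PSAP. Each direction rests on 1 library against 1 library, and the difference between the directions was not tested.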

How the results depend on the processing

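No paired analysis was possible because there is a single library of each treatment, which also leaves no replicate to omit. Shares of all genes are given here only for the scaling over the genes tested, so the other counts describe the list alone. With a pseudocount of 0.1, the genes past 1 were 2 against vehicle and 3 against 6-MP, and against 6-MP 11 genes were higher and 1 lower by 0.5. Without the filter the median of histidine against vehicle was 0.015, with the opposite sign. With a mean FPKM of at least 5, which leaves 23 genes of the list, the genes past 1 were 0 against vehicle and 0 against histidine, and those higher by 0.5 were 2 against vehicle, 4 against histidine and 4 against 6-MP. Scaling by the median ratio turned the median of 6-MP against vehicle to -0.006 and lowered that of the combined treatment against histidine to 0.048. It left 3, 3 and 4 genes higher by 0.5 and 1, 1 and 1 lower, against vehicle, histidine and 6-MP. Of all genes, 13.9%, 12.7% and 13.4% were then higher and 11.7%, 11.4% and 10.9% lower, in the same order. The scaling over all genes above 0, chosen after the data were seen, divides the combined treatment by 0.24 more on the log2 scale than vehicle. The medians were then -0.005 for 6-MP against vehicle and 0.002, -0.010 and 0.009 for the combined treatment against vehicle, histidine and 6-MP. The genes past 1 against histidine were then 0, those higher by 0.5 were 2, 2 and 4, and those lower 1, 1 and 1. Scaling moves all genes alike. Beside the list's medians of 0.21, 0.077 and 0.002 against vehicle (deposited scale and both scalings), all genes had 0.13, -0.000 and -0.069, so the sign and size of the list's median depend on the scaling, while it lay above that of all genes on each. For the single genes of the list under the planned scaling, the log2 fold change against vehicle was 0.61 for GUSB, 0.43 for SCARB2, 0.31 for PSAP and 0.31 for GRN. Of the genes tested, WIPI1 and GABARAPL1 have the largest counting errors, and below the filter those of ATP6V0C and CTSZ are larger still.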
